A study of Mus musculus with 12 samples.

Results

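The genes described here are 8 enzymes of heme synthesis, Alas1, Alas2, Alad, Uros, Urod, Cpox, Ppox and Fech. They were chosen by name, and every probe set of the array that is annotated with exactly 1 of these symbols was taken. This gave 19 probe sets of 45037 on the array and 8 of the 18193 genes that have a probe set of their own. A probe set is a group of short oligonucleotides made to read a transcript, and some can bind more than 1. For each gene the brightest probe set, by its mean over all arrays, was taken as the leading one, and the others served as checks. Values are log2 signals after robust multi-array averaging (RMA), so a difference of 1 is a doubling.

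The mice carried a knock-in (KI) of the Q202L substitution in PU.1, a transcription factor of myeloid and lymphoid cells. The study asked which genes change in early blood cells when PU.1 can no longer bind its partner c-Jun, and compared homozygous KI animals with wild-type (WT) littermates. RNA of cells sorted from the liver was hybridized to 12 arrays, with 3 arrays for ST-HSC and 3 for GMP from animals of each genotype. The sample records give the animals as C57Bl/6 and newborn, taken at birth or just before it, whereas the study's text speaks of fetal liver, of embryos as well as newborns and of a mixed strain background, and which of these holds for the arrays is not settled here. No other allele or agent is named, and the mutation is carried by the whole animal, so it is not limited to blood cells. Short-term hematopoietic stem cells (ST-HSC) were lineage-negative, Sca-1+, c-kit+ and CD150-, and the sources differ on whether they were CD48+ or CD48-. Granulocyte-macrophage progenitors (GMP) were lineage-negative, Sca-1-, c-kit+ and high in Fc gamma receptors II and III. The records give the gate as CD34+ for both genotypes. The study's text describes the KI cells put on arrays as intermediate in CD34, hence GMP-like, and elsewhere such KI cells as low in CD34. Nothing says which samples share an animal or a litter, so the p-values speak only of the scatter among these samples, part of which may be technical.

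Heme is an iron-containing ring that carries oxygen in hemoglobin and electrons in cytochromes. Its synthesis starts in the mitochondrion, where glycine and succinyl-CoA are joined to aminolevulinic acid, runs through the cytosol and ends in the mitochondrion again with the insertion of iron. Every cell with mitochondria needs the pathway, and red cell precursors, which fill the fetal and newborn liver, run it at by far the highest rate and use an enzyme of their own, Alas2, for the entry step.

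The array as a whole sets some limits. Replicates of a group correlated at 0.963 to 0.990 over all probe sets. The median of an array was 5.00 to 5.10 in the ST-HSC arrays and 4.70 to 4.79 in the GMP arrays, as if the populations had been normalized apart, so levels of the populations are set side by side without a test. Spi1, the gene of PU.1, lay at 7.89 to 8.18 in the ST-HSC arrays and at 7.95 to 8.95 in the GMP arrays. Which part of the transcript its probe set reads was not analysed, so this level does not check the genotype. Kit and Cd48 were above the array median in all 12 arrays. Cd34 was lower in the KI GMP-like cells, at 6.66 to 6.86, than in WT GMP, at 9.53 to 9.80, and Slamf1, which encodes CD150, was at 6.50 to 6.54 in KI ST-HSC against 4.05 to 4.90 in WT ST-HSC. Xist, transcribed from the inactive X chromosome of female cells, was high in replicates 1 and 3 of both WT groups, at 10.67 to 11.74, and lay between 2.98 and 3.78 in the other 8 arrays. All KI arrays were thus low in Xist, so genotype and Xist level are partly confounded. These are bulk samples, in which fewer cells of a type and less RNA per cell cannot be told apart.

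In ST-HSC, 1 of the 8 enzymes passed the test by its leading probe set. Alas2, the erythroid enzyme of the entry step, was 1.96-fold higher in KI, a fold measured at low signal, where RMA compresses differences and where the WT level was not checked against background. None of the 8 was lower. All 8 differences lay above 0, with a median of 0.42, against a median of -0.02 and 8639 differences above 0 among the 18193 genes. Of all genes, 1.33% were called higher and 1.68% lower at a Benjamini-Hochberg adjusted p under 0.05. The KI arrays all lay above the WT arrays for 3 of the 8, Alas2, Urod and Cpox, which was so for 10.9% of all genes.

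In GMP, none of the 8 enzymes passed the test by its leading probe set in either direction, and none had an unadjusted limma p under 0.05. The differences lay above 0 for 5 of the 8, with a median of 0.24 against -0.03 over all genes, of which 1.19% were called higher and 1.4% lower. The KI arrays lay wholly above the WT arrays for Cpox and wholly below them for Alas2, which was so for 8.26% and 11.1% of all genes.

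Counted over the 19 probe sets, 2 were called higher in ST-HSC, that of Alas2 and 1 of the 4 of Fech, and 1 in GMP, the same probe set of Fech. None was lower. Among all probe sets 1.02% were called higher and 1.19% lower in ST-HSC, and 1.05% and 1.07% in GMP. Without adjustment, 7 of the 19 had a p under 0.05 in ST-HSC, against 13% of all probe sets, and 2 in GMP, against 14.3%. In ST-HSC the KI arrays lay wholly above the WT arrays for 8 of the 19, against 10.3% of all probe sets, and in GMP for 4, against 8.01%. The SAM procedure, the test named in the study's methods, called none of the 19 in either population.

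**Figure D1:**
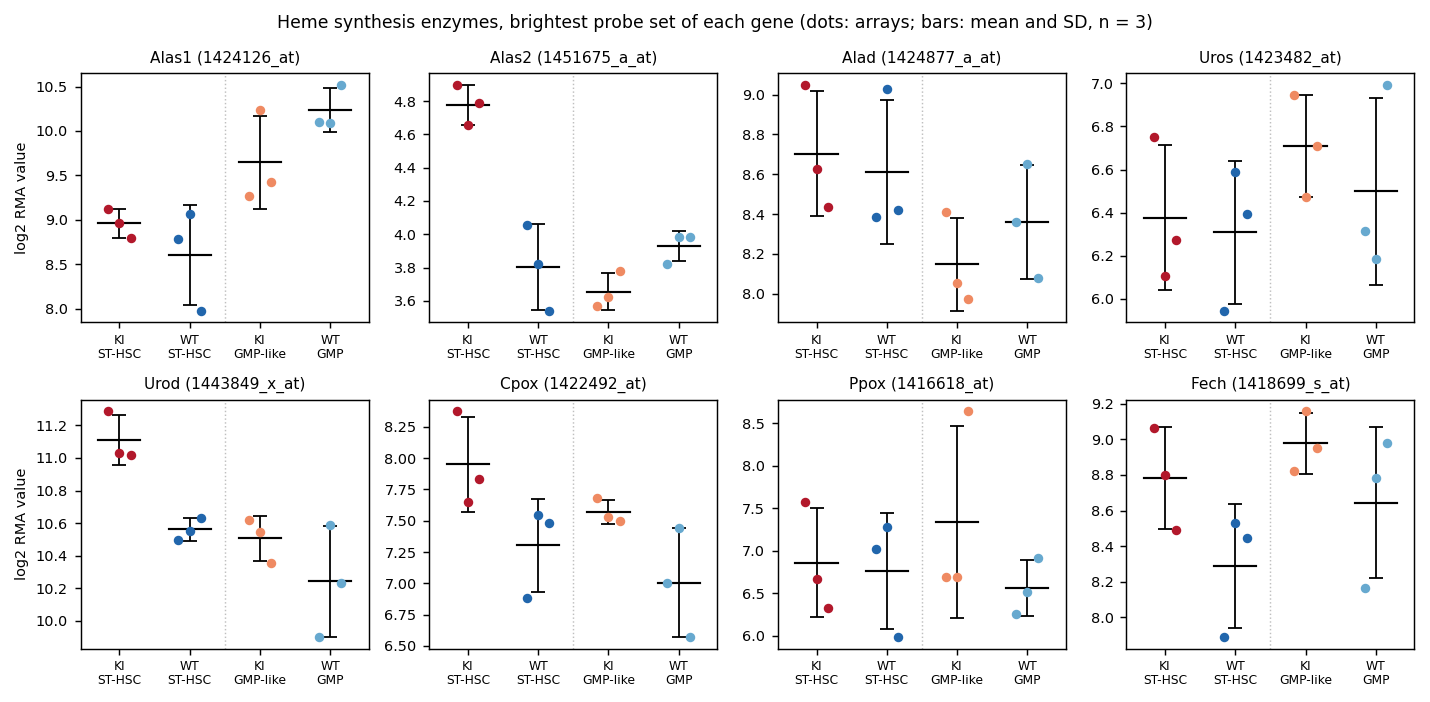
Log2 RMA value (y axis, a scale of its own for each gene) of the leading probe set of each enzyme in the 4 groups (x axis), with dots for the 12 arrays and bars for mean and SD of 3. The KI ST-HSC arrays of Alas2 (4.66 to 4.90) and of Urod (11.02 to 11.29) lie above the WT ST-HSC arrays (3.54 to 4.06 and 10.50 to 10.63), whereas those of Alad, Uros and Ppox mix with them.

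The plot of the leading probe sets by array shows the values that the following account goes through, from the entry of the pathway to its end. Promoter sequence is given for the genes of the entry step and for Cpox, since Alas2 was the enzyme called and Alas2 and Cpox were the members whose window held the GATA core motif. Promoters here are the 250 bases before the gene start in RefSeq on GRCm38.p6, written 5′ to 3′ on the strand of the gene, and 7 of the 8 enzymes had one, all but Fech. Where a gene had several starts, only the farthest upstream was used. This was so for Alas1, Alad and Uros, with 2 windows each, and the motif counts hold for the window used. Capitals mark GATAA, the core bound by GATA factors, and GAGGAA, the core bound by PU.1, on either strand (as TTATC and TTCCTC). The windows are chrX:150547167-150547416 (plus strand) for Alas2, chr16:58669958-58670207 (plus strand) for Cpox and chr9:106247955-106248204 (minus strand) for Alas1.
Alas2: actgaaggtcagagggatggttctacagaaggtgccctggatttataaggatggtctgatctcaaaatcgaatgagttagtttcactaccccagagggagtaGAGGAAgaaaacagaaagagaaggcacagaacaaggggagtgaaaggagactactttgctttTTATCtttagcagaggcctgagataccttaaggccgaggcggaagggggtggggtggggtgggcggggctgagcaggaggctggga
Cpox: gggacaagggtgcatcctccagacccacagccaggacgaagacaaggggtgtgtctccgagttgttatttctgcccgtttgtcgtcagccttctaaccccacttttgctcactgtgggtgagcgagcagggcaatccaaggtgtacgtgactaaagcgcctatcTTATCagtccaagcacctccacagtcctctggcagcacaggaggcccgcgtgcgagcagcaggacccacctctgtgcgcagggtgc
Alas1: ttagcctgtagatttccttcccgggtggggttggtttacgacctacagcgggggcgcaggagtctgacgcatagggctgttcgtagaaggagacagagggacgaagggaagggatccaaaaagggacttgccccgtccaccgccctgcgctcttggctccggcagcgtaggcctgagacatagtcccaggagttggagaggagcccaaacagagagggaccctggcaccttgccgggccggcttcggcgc

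GATAA was found 1 time in the window of Alas2 and 1 time in that of Cpox, in both 86 bases before the start, and in none of the other 5 windows. Of 27025 promoters of this length 23% held it. GAGGAA was found 1 time in Alas2, 148 bases before the start, and 2 times in Uros, against a share of 23.1% of all promoters. CACCC, the core bound by factors of the Klf family (GGGTG on the other strand), occurred 3 times in Alas2, 4 times in Cpox and 1 time in Alas1, and 51.3% of all promoters held it. TGANTCA, the AP-1 site that c-Jun binds, was in none of the 7 windows and in 6.85% of all promoters. CACCC can share an end with each of the other motifs, and matches were counted for each motif on its own. A match is a run of letters, not a bound site. The Alas2 window had 4 CpG pairs and 51.2% G and C, close to the medians of 6 and 52.0% over all promoters, while that of Alas1 had 16 and 62.4%.

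Alas1 encodes the aminolevulinic acid synthase of most tissues, whose product feeds the heme of cytochromes and other enzymes. Its leading probe set (1424126_at, chromosome 9) read 9.12, 8.96 and 8.79 in KI ST-HSC and 8.78, 9.06 and 7.97 in WT ST-HSC. The groups overlapped, and 1 WT array, replicate 3, lay well below the rest. The KI minus WT difference was 0.35 (SE 0.308, adjusted p = 0.723). In GMP the values were 9.27, 10.24 and 9.43 in KI and 10.11, 10.09 and 10.52 in WT, again with an overlap through KI replicate 2, and the difference was -0.59 (adjusted p = 0.435). The second probe set of the gene gave differences of the same signs, 0.30 and -0.40. Alas1 was the member with the clearest order over the groups: WT GMP was highest with a mean of 10.24 (SD 0.246, n = 3), then KI GMP-like cells with 9.65 (SD 0.520), KI ST-HSC with 8.96 (SD 0.163) and WT ST-HSC with 8.60 (SD 0.565). This order was the same after each array's median was subtracted and after quantile normalization over all 12 arrays. All GMP arrays of a genotype lay above all its ST-HSC arrays, while neighbours of different genotype within a population overlapped.

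Alas2, on the X chromosome, encodes the synthase of red cell precursors, a target of GATA1 whose loss in humans gives sideroblastic anemia. Its only probe set (1451675_a_at) read 4.90, 4.66 and 4.79 in KI ST-HSC and 4.06, 3.82 and 3.54 in WT ST-HSC. The lowest KI array was thus above the highest WT array. The difference was 0.97 (SE 0.150, 95% interval 0.64 to 1.31, adjusted p = 0.00684, limma), or 1.96-fold. In GMP the KI-like cells read 3.57, 3.62 and 3.78 and WT 3.82, 3.98 and 3.98, so no KI array reached the lowest WT array, by a small step. That difference was -0.27 (SE 0.150, adjusted p = 0.465). The difference of the 2 differences, GMP minus ST-HSC, was -1.25 and had an adjusted p of 0.0966, short of the threshold, which 0.0488% of all probe sets passed. Leaving out 1 array gave adjusted p-values from 0.0456, without WT ST-HSC replicate 1, up to 0.226. With the replicate number as a block it was 0.155.

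The level of Alas2 was low throughout. On average it stood at percentile 45.9 of the probe sets in KI ST-HSC and at percentile 29 in WT ST-HSC, 30.5 in KI GMP-like cells and 36.4 in WT GMP, below the median of every array. KI ST-HSC had the highest mean of the 4 groups under all 3 scalings, and the order of the other groups changed with the scaling. As Alas2 is X-linked, its values were set beside Xist. The WT ST-HSC array of low Xist, replicate 2, read 3.82 for Alas2, between the other WT arrays of high Xist. With Xist as a covariate the difference was 0.95 and kept its call (adjusted p = 0.0425), and without the WT arrays of high Xist, which leaves 1 WT array in each population whose spread is taken from the other groups, the adjusted p was 0.0577. With only the 6 ST-HSC arrays in the fit it was 0.054. Leaving out any single array kept the difference between 0.84 and 1.10, with an adjusted p of at most 0.0334.

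Alad encodes the zinc enzyme that joins a pair of aminolevulinic acid molecules to porphobilinogen in the cytosol. Its leading probe set (1424877_a_at, chromosome 4) read 9.05, 8.63 and 8.43 in KI ST-HSC and 8.39, 9.03 and 8.42 in WT ST-HSC, ranges that nearly coincide. The difference was 0.09 (SE 0.236, adjusted p = 0.932), with a 95% interval from -0.43 to 0.61. In GMP it was -0.21 (adjusted p = 0.784), with KI arrays at 7.97 to 8.41 and WT arrays at 8.08 to 8.65. A dimmer probe set (1457306_at) had KI arrays wholly above WT in ST-HSC (difference 0.48, adjusted p = 0.319) and wholly below in GMP (-0.24, adjusted p = 0.680).

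Uros closes the linear tetrapyrrole into the ring of uroporphyrinogen. Its leading probe set (1423482_at, chromosome 7) lay between 6.10 and 6.75 in ST-HSC of KI and between 5.94 and 6.59 in those of WT. In GMP the KI range was 6.47 to 6.95 and the WT range 6.19 to 6.99. All groups overlapped. The differences were 0.07 (SE 0.262, 95% interval -0.51 to 0.65) in ST-HSC and 0.21 (95% interval -0.37 to 0.79) in GMP. Its second probe set gave 0.25 and 0.02.

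Urod removes carboxyl groups from the side chains of uroporphyrinogen, the last cytosolic step. Its leading probe set (1443849_x_at, chromosome 4) was high in every group and read 11.29, 11.03 and 11.02 in KI ST-HSC and 10.50, 10.55 and 10.63 in WT ST-HSC. The KI arrays all lay above the WT arrays, and both groups were tight. The difference was 0.55 (SE 0.174, 95% interval 0.17 to 0.94) with an unadjusted p of 0.0094, which did not pass after adjustment (adjusted p = 0.172). The other probe set of Urod (1417206_at) gave nearly the same difference, 0.54 (adjusted p = 0.227), from KI values of 9.68, 9.38 and 9.37 and WT values of 8.95, 8.59 and 9.25, also without overlap. In GMP the probe sets differed in sign, with 0.26 for the leading one (adjusted p = 0.570) and -0.08 for the other. The ending x of the leading probe set marks probes that may bind other transcripts, and the second one has no such mark. The second probe set of Alas1 (1455282_x_at) carries this mark too. The leading probe set was lower in KI GMP-like cells (10.35 to 10.62) than in KI ST-HSC (11.02 to 11.29) without overlap, also under both other scalings.

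Cpox oxidizes and decarboxylates coproporphyrinogen between the mitochondrial membranes. Its leading probe set (1422492_at, chromosome 16) read 8.38, 7.65 and 7.83 in KI ST-HSC and 6.88, 7.54 and 7.48 in WT ST-HSC, and 7.68, 7.53 and 7.50 in KI GMP-like cells and 7.00, 7.44 and 6.57 in WT GMP. It was the only leading probe set whose KI arrays lay above the WT arrays in both populations, in each by a gap smaller than the spread within WT. The differences were 0.65 in ST-HSC (SE 0.265, adjusted p = 0.319) and 0.56 in GMP (SE 0.265, adjusted p = 0.371). The second probe set (1422493_at) gave 0.82 in ST-HSC (adjusted p = 0.210), again without overlap, and 0.00 in GMP. The third (1440747_at) was near the floor of the array in both WT groups and gave 0.81 in ST-HSC (adjusted p = 0.744). Its difference of 1.12 in GMP (adjusted p = 0.571) came from 1 array, KI GMP-like replicate 2, at 5.84.

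Ppox turns protoporphyrinogen into protoporphyrin at the inner mitochondrial membrane. Its leading probe set (1416618_at, chromosome 1) was the most variable of the 8, with 7.57, 6.67 and 6.33 in KI ST-HSC and 7.02, 7.28 and 5.98 in WT ST-HSC. The difference was 0.10 (SE 0.545, adjusted p = 0.968), with an interval from -1.11 to 1.30. In GMP it was 0.78 (adjusted p = 0.602), and this rested on KI GMP-like replicate 3 at 8.65, since the other KI arrays were both at 6.69, within the WT range of 6.26 to 6.91. Without that array the GMP difference was 0.12. Its other probe sets gave -0.40 and -0.15 in ST-HSC and 0.25 and 0.06 in GMP, and the dimmest of them stood at percentile 0.8 to 4.2 of the arrays.

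Fech, the ferrochelatase that places iron into protoporphyrin, is on chromosome 18 and has 4 probe sets that did not move together. The leading one (1418699_s_at) read 9.06, 8.80 and 8.49 in KI ST-HSC and 7.89, 8.53 and 8.45 in WT ST-HSC. The groups overlapped by a little, and the difference was 0.49 (SE 0.249, adjusted p = 0.451). In GMP the KI arrays lay at 8.82 to 9.16 and the WT arrays at 8.17 to 8.98, for a difference of 0.33 (adjusted p = 0.633).

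The probe set 1449181_at of Fech read 6.93, 6.16 and 6.25 in KI ST-HSC and 5.35, 5.12 and 5.12 in WT ST-HSC. In GMP it read 6.37, 6.96 and 6.76 in KI and 4.98, 5.36 and 5.14 in WT. In both populations the lowest KI array was above the highest WT array by more than the spread within WT. The difference was 1.25 in ST-HSC (SE 0.224, 95% interval 0.75 to 1.74, adjusted p = 0.0162), or 2.37-fold, and 1.54 in GMP (SE 0.224, 95% interval 1.04 to 2.04, adjusted p = 0.00669), or 2.91-fold. These differences did not differ from each other by the test (0.29, adjusted p = 0.885). In ST-HSC the call was lost without WT ST-HSC replicate 3 (adjusted p = 0.062), with only the 6 ST-HSC arrays (0.0622), with Xist as a covariate (0.0774) and without the WT arrays of high Xist (0.132), while the difference stayed at 1.21, 1.25, 1.19 and 1.32. In GMP it held when any single array was left out, with an adjusted p of at most 0.0312, and was lost without the WT arrays of high Xist (0.182), at a difference of 1.34.

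**Figure D2:**
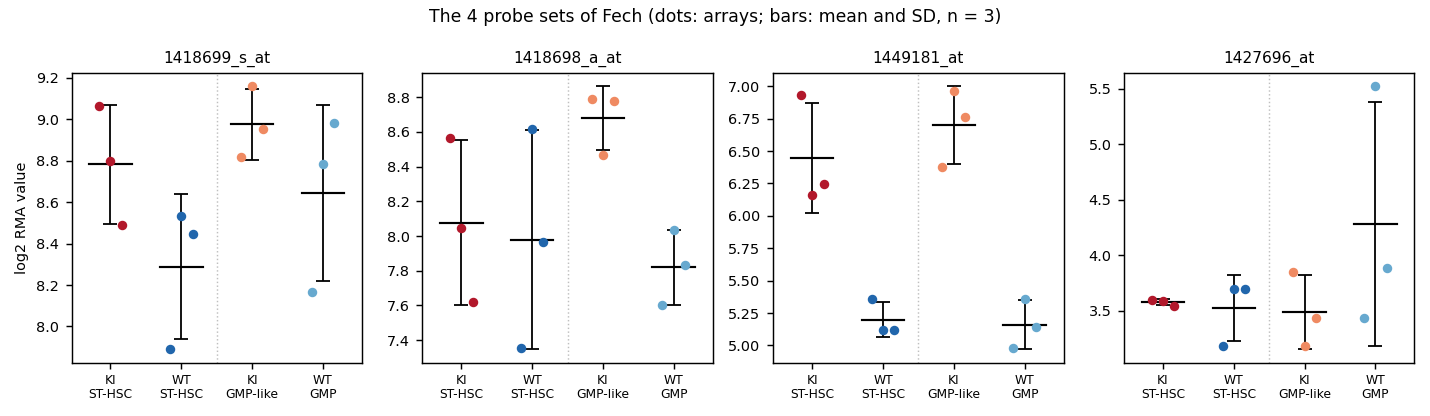
Log2 RMA value (y axis, a scale of its own for each panel) of the 4 probe sets of Fech in the 4 groups (x axis), with dots for arrays and bars for mean and SD of 3. In the panel of 1449181_at the KI arrays (6.16 to 6.96) lie above all WT arrays (4.98 to 5.36) in both populations, which is not so in the panel of the leading probe set, 1418699_s_at.

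The other probe sets of Fech gave 0.10 (1418698_a_at, adjusted p = 0.946) and 0.05 (1427696_at, adjusted p = 0.977) in ST-HSC. In GMP the first of these was higher in all KI arrays, by 0.86 (adjusted p = 0.224), and the other had a difference of -0.79 (adjusted p = 0.463) that rested on WT GMP replicate 2, at 5.52. The panels of the Fech plot thus show 1 probe set called in both populations beside 3 called in neither. Which part of the transcript each probe set reads was not analysed here.

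**Figure D3:**
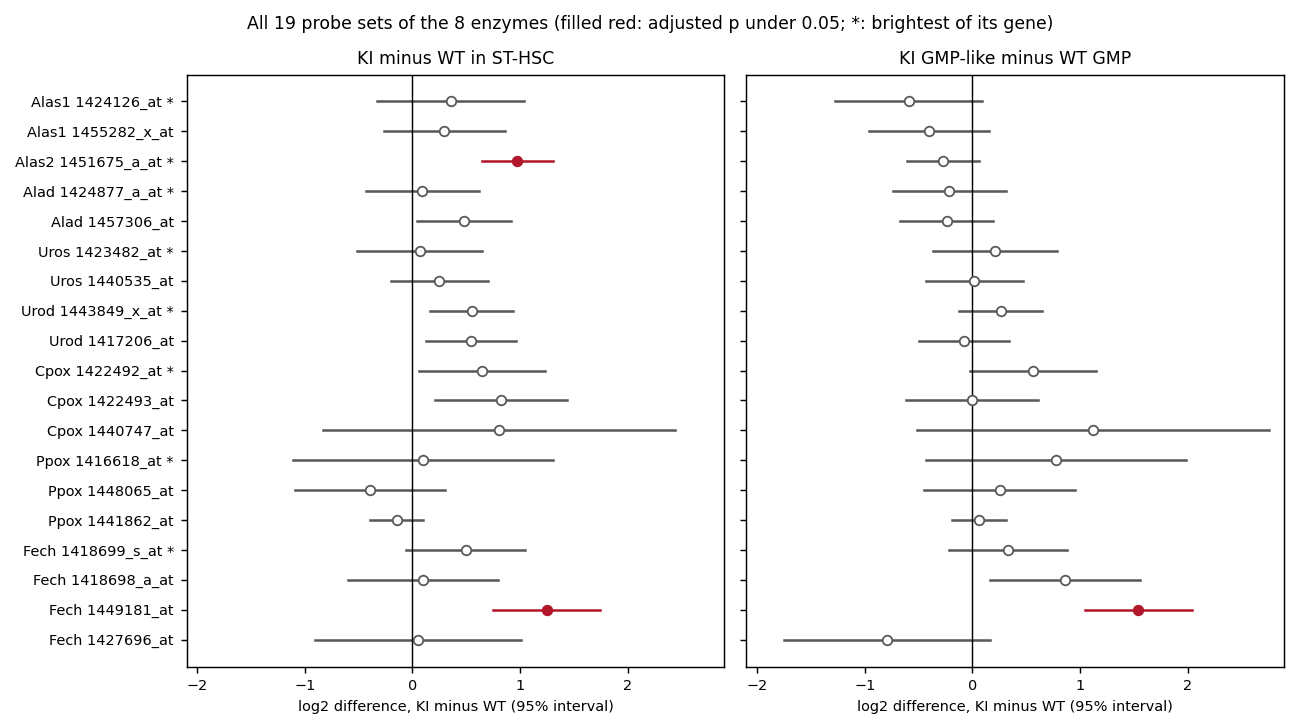
KI minus WT log2 difference (x axis) with its 95% interval for each of the 19 probe sets (y axis), in ST-HSC on the left and GMP on the right, with filled red points for an adjusted p under 0.05 and a star at the leading probe set of a gene. In ST-HSC 17 of 19 points lie above 0 and 2 are filled, Alas2 and 1449181_at of Fech, whereas in GMP 11 lie above 0 and 1 is filled.

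The plot of all differences shows that 17 of the 19 lay above 0 in ST-HSC, the exceptions being 2 probe sets of Ppox, and 11 of 19 in GMP. No probe set of an enzyme had a difference between the populations that passed the test. An unadjusted p under 0.05 was found for 3 of the 19 and for 7.82% of all probe sets, and for 1 of the 8 leading probe sets. For Alas1 the leading probe set gave -0.95 (adjusted p = 0.648).

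The members also varied together to different degrees. After the mean of its population was subtracted from each array, the leading probe sets of Urod and Cpox correlated at r = 0.803 over the 12 arrays, Urod and Fech at 0.776 and Cpox and Fech at 0.634. Alas2 and Urod correlated at 0.575 and Alas1 with Alas2 at 0.529, but Alas1 with Cpox at -0.187. The arrays are shared by all genes, and the KI minus WT step of each population enters these values, so they describe these 12 arrays and no more. The genes most like Alas2 by this measure were Clca3a1 (0.950), Rab21 (0.942), Tmem163 (0.935), Add2 (0.932) and Gna14 (0.929). Those most like Urod were Bcl2l15 (0.951), Lcn2 (0.934), Olr1 (0.930), Ltb4r1 (0.930) and Gata1 (0.920), and those most like Cpox were Mettl8 (0.936), Far2 (0.909), Myo10 (0.906), Platr10 (0.903) and Nktr (0.901).

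Genes that surround the pathway were read from lists. The counts of each list stand against all genes, of which 1.33% were called higher and 1.68% lower in ST-HSC. In GMP the shares were 1.19% and 1.4%. Of 20 genes of porphyrin and heme transport, none passed the limma test in either population, with 4 and 3 genes at an unadjusted p under 0.05, which 14.3% of all genes had in ST-HSC and 15.9% in GMP, and their medians were 0.07 in ST-HSC and -0.15 in GMP. Abcb10, a mitochondrial transporter of erythroid cells, had a difference of 0.75 in ST-HSC (adjusted p = 0.107), Tspo, an outer membrane protein that binds porphyrins, -0.91 (adjusted p = 0.0937), and Slc25a37 (mitoferrin), which brings iron to the mitochondrion, -1.10 in GMP (adjusted p = 0.0887). None of 12 genes of mitochondrial iron-sulfur cluster assembly and none of 10 of succinyl-CoA and glycine supply passed either, with medians of 0.02 and 0.10 in ST-HSC and -0.16 and -0.21 in GMP. In each of these lists 1 gene in ST-HSC and 2 in GMP had an unadjusted p under 0.05.

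Among 8 genes of heme breakdown 2 rose in ST-HSC and 1 in GMP. Blvrb, a biliverdin reductase, rose by 2.54 (adjusted p = 0.0219, ST-HSC) and 3.60 (adjusted p = 0.00426, GMP). Its ST-HSC call was lost without any 1 of the 3 KI ST-HSC arrays or WT ST-HSC replicate 3 (adjusted p 0.0572 to 0.0858). Cd163, the receptor for hemoglobin bound to haptoglobin, rose by 1.19 in ST-HSC (adjusted p = 0.00428) and had a difference of -0.20 in GMP. The medians of the list were 0.09 and -0.18. Of 23 hemoproteins 2 fell in ST-HSC and 1 in GMP. Cybb, the heme-carrying subunit of the phagocyte oxidase, fell by 4.74 (adjusted p = 0.000865) and by 5.19 (adjusted p = 0.00052), and Tbxas1, thromboxane synthase, fell by 1.28 in ST-HSC (adjusted p = 0.02), a call lost without any 1 of the 3 KI ST-HSC arrays or WT ST-HSC replicate 1 (0.0518 to 0.0922).

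Of 25 regulators of heme synthesis 3 rose in ST-HSC, and in GMP 2 rose and 1 fell, with medians of 0.40 and 0.09. Gfi1b, a repressor needed for red cells and platelets, rose in both, by 2.92 (adjusted p = 3.8e-05) and 1.71 (adjusted p = 0.00142). In ST-HSC its WT arrays read between 5.90 and 6.36 and its KI arrays between 8.79 and 9.23. Nfe2 rose by 0.80 (adjusted p = 0.0356) and 0.81 (adjusted p = 0.0372), calls that leaving out 1 array ended for 8 of the 12 arrays in ST-HSC (0.0507 to 0.122) and for 9 in GMP (0.0597 to 0.107). With the replicate number as a block they were lost as well, at 0.0532 and 0.054. Gata2 rose by 1.86 in ST-HSC (adjusted p = 0.0325, lost for 6 of the 12 arrays left out, 0.0505 to 0.113) and Lmo2 fell by 1.48 in GMP (adjusted p = 0.0174, 0.0616 to 0.0623 without WT GMP replicates 1 or 3). Gata1, the erythroid activator of Alas2, had differences of 1.51 in ST-HSC (adjusted p = 0.0543) and 1.34 in GMP (adjusted p = 0.0813), neither of which passed the threshold.

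**Figure D4:**
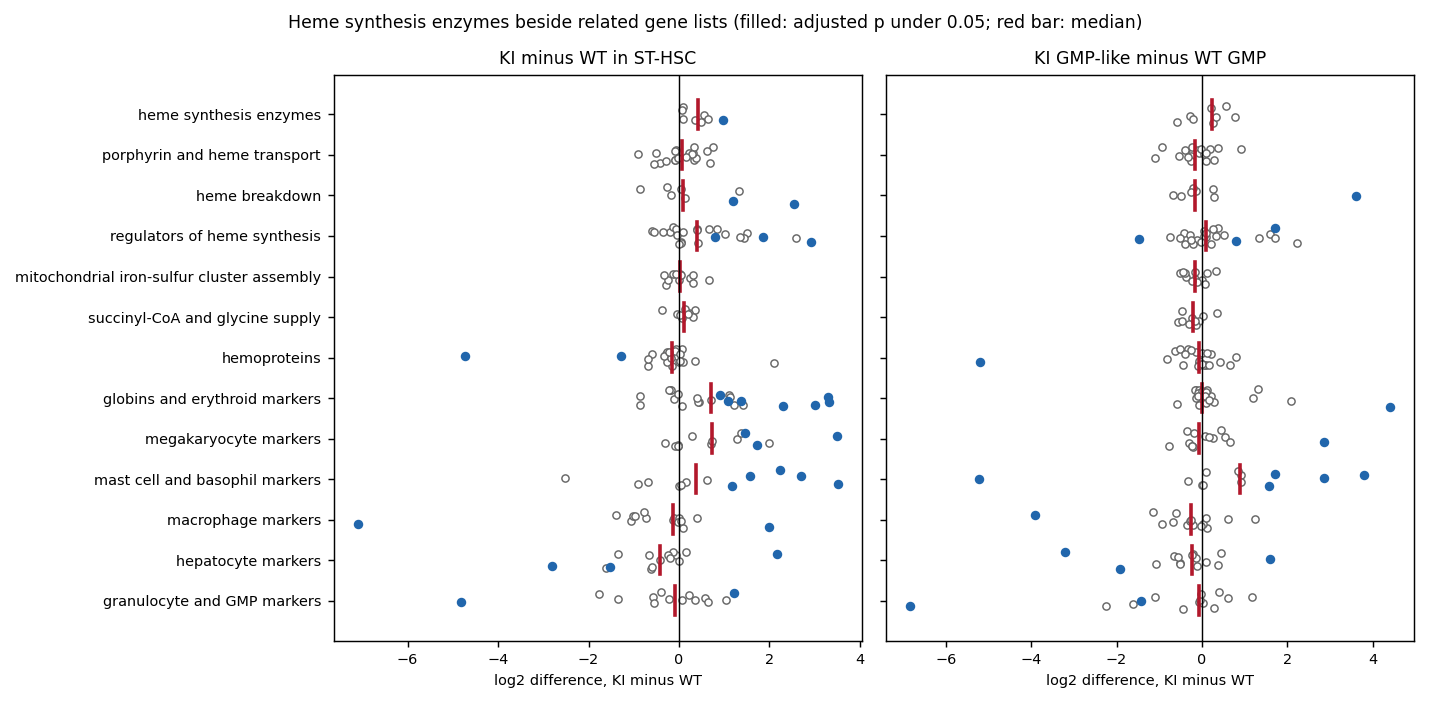
KI minus WT log2 difference (x axis) of the leading probe set of each gene in the 8 heme synthesis enzymes and 12 related lists (y axis), in ST-HSC on the left and GMP on the right, with filled blue points for an adjusted p under 0.05 and a red bar at the median of a list. The enzymes have a median of 0.42 in ST-HSC, beside 0.70 for the erythroid markers and 0.07 for the transport genes.

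The plot of the related lists also holds markers of cell types. Their medians in ST-HSC ran from -0.43 for hepatocyte markers to 0.72 for megakaryocyte markers. Of 23 globins and erythroid markers 7 rose in ST-HSC and none fell, and the median was 0.70, while in GMP 1 rose, with a median of -0.01. Of the 7 calls, that of Add2 was lost for 10 of the 12 arrays left out singly (adjusted p 0.0504 to 0.157). That of Ermap was lost for 9 (0.0507 to 0.145) and that of Ank1 for 6 (0.0521 to 0.14). Kel, a blood group protein of the red cell surface, rose by 3.31 and 4.41 (adjusted p = 0.00153 and 0.000285), Rhag, an Rh-associated protein of the red cell membrane, by 1.38 in ST-HSC (adjusted p = 0.00296), Tfr2, a transferrin receptor, by 3.02 (adjusted p = 0.00608) and Car1, a carbonic anhydrase of red cells, by 3.32 (adjusted p = 0.00856). The summed linear level of the list ranged from 14668 to 16408 for KI and from 10949 to 12373 for WT in ST-HSC, and from 8629 to 9059 for KI and 6946 to 8025 for WT in GMP. The globin Hba-a2 was bright in all 12 arrays, at 11.85 to 12.47, and Hbb-b2 lay between 4.14 and 7.28. Hba-a1, Hba-x, Hbb-bh1, Hbb-y and also Rhag lay below the median of every array. No globin was called in ST-HSC. The differences there were -0.21 for Hba-a1, -0.11 for Hba-a2, -0.17 for Hba-x, -0.87 for Hbb-b2, -0.02 for Hbb-y and 0.08 for Hbb-bh1. Without Tfrc, the member with the widest gap, the sums in ST-HSC were 12561 to 13968 for KI and 10097 to 11129 for WT, and those in GMP overlapped.

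Of 14 megakaryocyte markers 3 rose in ST-HSC and 1 in GMP, with medians of 0.72 and -0.06. Leaving out 1 array ended the ST-HSC call of Pf4 for 10 of the 12 arrays (adjusted p 0.0556 to 0.161). It ended that of Gp1bb for 7 (0.0514 to 0.123). Among all genes 1.33% were called higher and 1.68% lower in ST-HSC, and 1.19% and 1.4% in GMP. The summed level of the megakaryocyte markers was 3843 to 4343 in KI ST-HSC against 1678 to 2511 in WT ST-HSC. Of 12 mast cell and basophil markers 5 rose in ST-HSC, and in GMP 4 rose and 1 fell, with summed levels of 4154 to 5134 against 683 to 2025 in ST-HSC and of 8240 to 11075 against 4092 to 7831 in GMP. The ST-HSC calls of Mcpt8 and Hdc were lost for 9 and 4 of the arrays left out singly (adjusted p 0.0568 to 0.165 and 0.0541 to 0.0866). In GMP that of Cma1 was lost for 8 (0.0545 to 0.101). The part of these cell types in the values of Alas2 and Fech was not tested. Macrophage markers, which would mark the cells that take up red cells in the liver, summed to 538 to 679 in KI ST-HSC and 2482 to 3413 in WT ST-HSC (1 of 15 rose and 1 fell). Csf1r had the widest gap, and without it the sums were 527 to 669 and 416 to 652. Hepatocyte markers summed to 910 to 946 and 1301 to 2090 in ST-HSC (1 of 15 rose and 2 fell), with an overlap when Hnf4a was left out. In GMP 1 of 15 macrophage markers fell, at 946 to 974 in KI against 2021 to 3006 in WT, and at 593 to 945 against 538 to 608 without Csf1r. Of the hepatocyte markers in GMP 1 rose and 2 fell, at 1912 to 2287 against 1127 to 1777, and without Apoc1 the sums turned to 458 to 591 against 582 to 1359. Granulocyte and GMP markers, 14 in all, summed to between 28682 and 41128 in the KI cells of the GMP gate and to between 40528 and 41664 in WT, where 2 fell and none rose. In ST-HSC 1 of the 14 rose and 1 fell.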

How the data were processed

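RNA of sorted ST-HSC and GMP was amplified linearly (Ovation Pico), labeled with biotin and put on Affymetrix MG430 v2 arrays, 1 per sample. The authors deposited log2 values per probe set after RMA, which the submitters' processing notes name without a version. RMA removes background, gives arrays a common distribution and combines the probes of a set, and it compresses differences at low signal, such as that of Alas2. There is no read depth, and precision depends on the number of arrays.

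No filter on low values was set, so all 19 probe sets of the enzymes were tested among 45037, with 64 controls removed. The platform annotation gives 1 symbol to 34945, several to 932 and none to 9160. Samples were grouped by their titles. KI minus WT in each population and the difference of these came from 1 limma fit (version 3.58.1, R 4.3.3) of 4 group means over all 12 arrays, with empirical Bayes moderation, 8 residual and 2.52 prior degrees of freedom and Benjamini-Hochberg adjustment over all probe sets. Intervals are at 95% and unadjusted. The fit was tested on simulated data.

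The enzymes, the 12 related lists and the tests were chosen with earlier results of these data known. Named genes are all enzymes, the 4 genes per list of smallest adjusted p or those called where a list has at most 6 (named in full for the lists nearest to heme, and mostly as counts for the other cell types), and the 5 genes most like Alas2, Urod and Cpox. Some further genes are named because leaving out 1 array ended their calls. Alternatives were a fit of 1 population alone, other scalings, filters on low values (log2 6 or more in 3 or more arrays; mean over that of the median probe set), eBayes with trend and robust, SAM, the replicate number as a block, Xist as a covariate, averaged probe sets per gene and the omission of each array. Omission of WT arrays with high Xist was added after the data were seen. Promoters and gene names come from RefSeq on GRCm38.p6. Protein sequences were not used here.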

Additional observations from a re-analysis of the deposited data

Results flagged for a closer look

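Among the enzyme probe sets and the listed genes, 5 cases had KI arrays all above the WT arrays in ST-HSC and all below them in GMP. Their differences thus had opposite signs in the populations. The share of all genes with both patterns was not counted. Taken singly, 10.9% of all genes had KI arrays all above in ST-HSC, and 11.1% all below in GMP. For Alas2 the difference in GMP minus that in ST-HSC was -1.25 (adjusted p = 0.0966, limma). For the dimmer probe set of Alad, 1457306_at, it was -0.72 (adjusted p = 0.545). Cd163 of the heme breakdown list had -1.39 (adjusted p = 0.0966), Aco1, an iron regulatory protein, -1.77 (adjusted p = 0.348), and Vwf of the megakaryocyte markers -1.07 (adjusted p = 0.245). None of these 5 values passed the test of the difference. Groups of 3 arrays were not searched for outlying arrays.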

How the results depend on the processing

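In ST-HSC the count of enzyme probe sets called, 2, was 0 with only the 6 arrays of the population, 0 when the WT arrays with high Xist were dropped and 0 by SAM, which called 41 probe sets higher and 121 lower in ST-HSC, and 12 and 31 in GMP. It was 1 with the first filter on low values, log2 6 or more in 3 or more arrays (12 of the 19 tested), 1 with a mean above the median probe set (13 tested) and 1 with Xist as a covariate, and leaving out 1 array gave 1 to 2, with 1 without WT ST-HSC replicate 3. By leading probe sets the count of 1, Alas2, was 0 with only the 6 arrays, by SAM, without the WT arrays of high Xist, and with both filters, which remove Alas2. In GMP SAM gave 0 probe sets in place of 1, and the call of Fech was also lost without the WT arrays of high Xist, as given above. The difference between the populations, with 0 calls, had 1, Alas2, when all probe sets of a gene were averaged (adjusted p = 0.0484) and 1 without WT ST-HSC replicate 1, so that leaving out 1 array gave 0 to 1 by probe sets and 0 to 1 by leading ones. Apart from constructions that test fewer probe sets or arrays, the cause was not tested.

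Small uncalled differences in ST-HSC changed sign. Without the WT arrays of high Xist, Alas1 was -0.10, Alad -0.32, Uros -0.21 and Ppox -0.42, and Urod in GMP -0.082. With Xist as a covariate, Alad was -0.28 and Ppox -0.17, and the mean of its probe sets gave -0.15 for Ppox. Leaving out 1 array gave -0.081 to 0.30 for Alad, -0.12 to 0.21 for Uros and -0.29 to 0.36 for Ppox. Of the settings of single genes, 1278 kept direction and side of the threshold, 2 gained a call and 15 changed direction, and the rest lost one.

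The deviations of same-numbered KI and WT arrays correlated at 0.034 to 0.074 in ST-HSC, and those of other numbers at -0.061 to 0.016. In GMP the same-numbered arrays correlated at -0.038 to -0.004 and the others at -0.029 to 0.041. All these values were small, and no pairing was assumed. Between WT ST-HSC and WT GMP the same-numbered arrays correlated at 0.062 to 0.164 and others at -0.135 to 0.002. With the replicate block the counts of enzyme calls stayed at 2 and 1 probe sets, and Alas2 had a difference of 0.97 (adjusted p = 0.0216). Of the called genes whose differences are given above, the block ended the calls of Nfe2 and of Blvrb in ST-HSC (adjusted p = 0.0526). Among these genes, Xist as a covariate ended the calls of Blvrb (0.112), Gata2 (0.0815) and Tbxas1 (0.0837) in ST-HSC, of Nfe2 in both populations (0.144 and 0.154) and of Lmo2 in GMP (0.0919). Add2, Ermap and Ank1 lost their ST-HSC calls with this covariate (0.125, 0.152 and 0.148). They lost them too with only the 6 ST-HSC arrays (0.13, 0.154 and 0.0782). The mean of its probe sets gave 0.02 for Ank1 in ST-HSC (adjusted p = 0.98). With only the 6 arrays of a population, Car1 (0.0545), Gata2 (0.0522), Tbxas1 (0.0855), Nfe2 (0.129 and 0.0834) and Lmo2 (0.15) lost theirs, and dropping the WT arrays with high Xist ended those of Blvrb (0.0574), Tbxas1 (0.15) and Rhag (0.0826) in ST-HSC, of Nfe2 in both populations (0.201 and 0.132) and of Lmo2 (0.304) and Gfi1b (0.0683) in GMP. The fall of Csf1r was no longer called without these arrays in ST-HSC (0.0606) and in GMP (0.333), where it was also lost with only the 6 arrays (0.171) and with Xist as a covariate (0.137).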
